A study of Mus musculus with 13 samples.

Results

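The genes described here encode the plasma membrane and lysosomal carriers of amino acids and close relatives, and were taken by symbol from the solute carrier families SLC1, SLC3, SLC6, SLC7, SLC36, SLC38 and SLC43. The tables of counted RNA-seq reads hold 61 such genes among 24421 genes. RNA was made from F1-2.1 cells, a female mouse embryonic stem (ES) cell line from a cross of CAST/Ei and 129/Sv/Jae, grown on irradiated fibroblast feeders. All cultures carried a Tet-on CTCF S224E transgene (1 clone, A2), in which glutamate replaces the serine at that position of the chromatin protein CTCF, and they kept their own Ctcf gene. The +dox group (2 libraries) was grown for 6 days with 1 μg/mL doxycycline, which switches the transgene and its EGFP marker on, and the -dox group (2 libraries) was grown for 6 days without it. Cells given doxycycline without S224E were not analysed here, so the drug and the mutant protein cannot be told apart.

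Amino acid carriers fall into a few working types. Sodium-coupled symporters such as SNAT1 and SNAT2 load neutral amino acids into the cell against their gradient, and exchangers such as LAT1 then trade part of that pool for the large essential amino acids outside. Light chains of the SLC7 family reach the plasma membrane bound to a heavy chain of the SLC3 family, and several carriers of the SLC36 and SLC38 families sit on lysosomes, where amino acid supply is signalled to the growth kinase mTORC1.

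Between 22899107 and 30206085 reads were counted per library. The transgene's own gene, Ctcf, had a log2 fold change of 0.13 between +dox and -dox (adjusted p = 0.475 from edgeR). The study found RNA-seq reads with the glutamate codon of the transgene. It describes the mutant as present without gross overexpression of its RNA. All 10 ES cell markers examined, among them Pou5f1, Nanog and Zfp42, were above 1 CPM (read counts scaled to a common library size with TMM factors). Their summed level was 6384 and 7141 CPM in the +dox libraries and 5769 and 6120 CPM in the -dox libraries. Log2 fold changes were above 0 for 8 of the 10 and below 0 for 2, and edgeR called 0 of them at an adjusted p under 0.01. One library stood apart. Fibroblast markers summed to 1047 CPM in +dox replicate 1, against 404 in +dox replicate 2 and 329 in each -dox library. Of these 15 markers, 14 reached a mean of 1 CPM and all 14 had a log2 fold change above 0, while none was at 0 reads over all libraries. Levels of 10 primitive streak genes went the other way, from 165 and 194 CPM in the -dox libraries to 34.1 in each +dox library. The 5 neural markers summed to 182 and 187 CPM with dox and 170 and 131 without. At an adjusted p under 0.01 edgeR called 1 of them, as higher, beside 0.599% of all genes. The 4 chromosome Y genes examined summed to 10.3 CPM in +dox replicate 1 and 3.28 in +dox replicate 2, against 2.46 and 2.67 without dox. The part of these cell mixtures in the values below was not tested, and in such bulk RNA fewer cells of a type and less RNA per cell cannot be told apart.

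None of the transporter genes was called between +dox and -dox. Of the 61 genes, 58 had at least 1 read and were tested with edgeR's quasi-likelihood test, and 0 had an adjusted p under 0.01, where 0.599% of all 20044 genes tested did. DESeq2 also called 0 of them, with no adjusted p for 21, against 1.87% of all genes. At an unadjusted p under 0.05 in edgeR there were 9 members (15.5%), 3 higher and 6 lower, close to the 17.8% of all genes. The lowest adjusted p of any member was 0.0785. The median log2 fold change over the 58 members was -0.06, beside 0.01 over all genes tested, and the summed level of all members was 2946 and 2975 CPM with dox and 2891 and 2820 CPM without. In 37 members the mean level reached 1 CPM, and 31 of these had a log2 fold change between -0.50 and 0.50. Members other than the 12 most abundant, Slc3a1 and the light chains were named after their values were seen. Slc1a5, Slc3a2, Slc7a6, Slc7a7 and Slc7a8 meet that rule but are also among the 9 members above, and the room given to them follows their values.

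**Figure D1:**
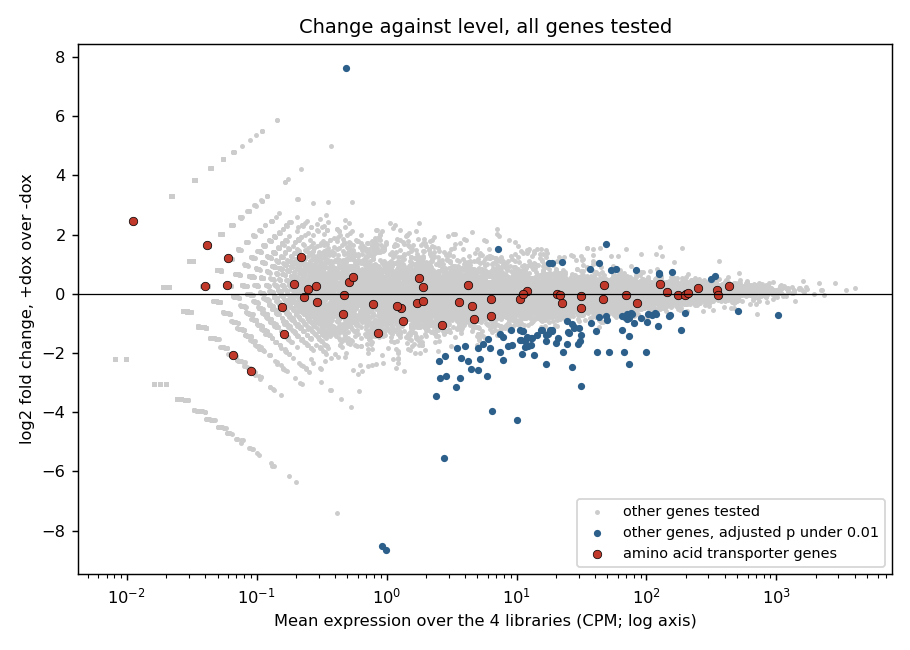
Log2 fold change of +dox over -dox cells (vertical axis) against mean expression over the 4 libraries in CPM (horizontal log axis) for 20043 genes tested. Transporter genes are red, other genes with an adjusted p under 0.01 are blue and the rest grey, and the red points lie within the grey cloud at every level.

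To compare levels between genes, counts were also divided by transcript length to give RPKM (here CPM per kilobase of transcript). Slc3a2, the heavy chain 4F2hc (CD98), was the most abundant member, with an RPKM of 186 and 182 with dox and 166 and 144 without. Next came Slc7a3, a carrier of arginine and lysine (CAT3), with a mean of 104 RPKM over the 4 libraries, and Slc38a2 (SNAT2), with 75.4 RPKM. The ranges of these 3 genes over the libraries did not overlap each other. Slc7a5 (LAT1), the taurine carrier Slc6a6, Slc7a7, Slc38a4 and the creatine carrier Slc6a8 followed between 59.2 and 49.8 RPKM, and each overlapped its neighbour in this order. Below them were Slc38a10 (31.9), Slc1a5 (30.8), Slc38a1 (23.4) and Slc38a7 (14.2), where the ranges overlapped between neighbours except for Slc38a7. These 12 genes made up between 89.2% and 91.1% of the summed RPKM of all 61 members in each library.

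**Figure D2:**
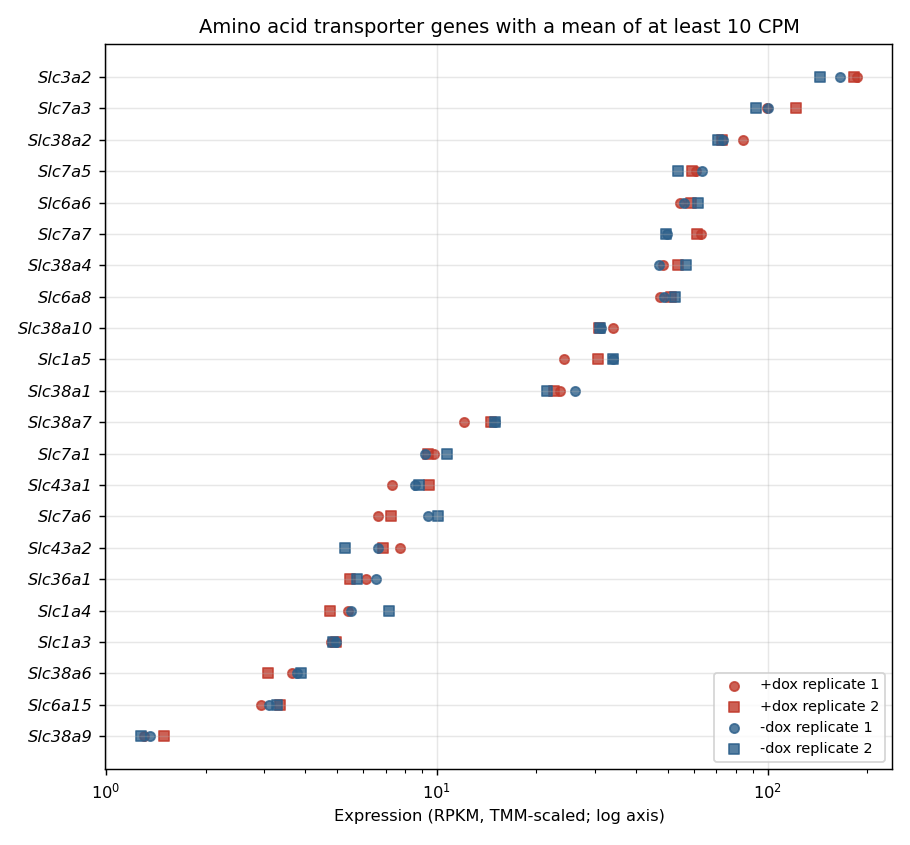
Expression in RPKM (horizontal log axis) of the 22 plotted transporter genes that averaged 10 CPM or more, 1 row per gene ordered by mean level. Circles are replicate 1 and squares replicate 2, red with dox and blue without, and the order of the genes runs downward from Slc3a2 (144 to 186 RPKM).

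The log2 fold changes of these 12 abundant genes ran from -0.31 to 0.32, 6 above and 6 below 0. Their 95% intervals, taken from the test statistic of each gene, together reached from -0.57 to 0.53, a range of 0.673-fold to 1.44-fold. For 9 of the 12 the interval included 0, and the others were Slc3a2, Slc7a7 and Slc1a5. Among all 23 members with at least 10 CPM, the interval stayed within 2-fold in either direction for 22, and within 1.5-fold for 18.

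The heavy chain and its light chains are described first. Slc3a2 (chromosome 19, 8781372 to 8788387 in mm9) had 476 and 466 CPM in the +dox libraries and 425 and 369 CPM in the -dox libraries. Both +dox values were above both -dox values, with a log2 fold change of 0.25 (SE 0.09, 95% interval 0.04 to 0.45, adjusted p = 0.177 from edgeR). Slc7a5, which pairs with it to carry leucine and other large neutral amino acids, had 213 and 206 CPM with dox and 222 and 188 without. The groups overlapped, and its log2 fold change of 0.03 had an interval from -0.19 to 0.25.

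Slc7a7 and Slc7a6 encode the y+LAT1 and y+LAT2 light chains, which both exchange cationic for neutral amino acids with 4F2hc. Slc7a7 (chromosome 14, 54989126 to 55036539) had 142 and 138 CPM with dox and 112 CPM in both libraries without, a log2 fold change of 0.32 (SE 0.09, interval 0.12 to 0.53, adjusted p = 0.0889 in edgeR and 0.0498 in DESeq2). Slc7a6 (chromosome 8, 108692775 to 108722604) had 24.7 and 27.1 CPM with dox and 35.0 and 37.5 CPM without, a log2 fold change of -0.48 (SE 0.14, interval -0.78 to -0.19, adjusted p = 0.0794 in edgeR and 0.0498 in DESeq2). The +dox and -dox values did not overlap for either gene, and the gap pointed in opposite directions. The RPKM of Slc7a7 was 9.42 and 8.36 times that of Slc7a6 in the +dox libraries and 5.25 and 4.89 times in the -dox libraries. Exons of 10 members overlap those of another gene on the opposite strand in the GENCODE annotation. For Slc7a7, 9.96% of the exon bases are shared with Oxa1l. Whether the counting used the strand is not given in the sources used here, so part of the Slc7a7 reads may belong to Oxa1l, which had 198 and 214 CPM with dox and 193 and 169 without.

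Slc7a8, the LAT2 light chain, was expressed at a much lower level than Slc7a5 and had the lowest adjusted p of all members. Its level was 3.55 and 3.15 CPM with dox and 6.29 and 5.82 CPM without (80 and 72 reads against 192 and 146). This was a log2 fold change of -0.85 (SE 0.24, interval -1.37 to -0.34, adjusted p = 0.0785 from edgeR and 0.131 from DESeq2), with -0.81 in replicate 1 and -0.87 in replicate 2. Slc7a5 and Slc7a7 together supplied 94.1% and 93.6% of the RPKM of the 6 light chains of Slc3a2 with dox, and 91.0% and 89.8% without. The second heavy chain, Slc3a1 (rBAT), and its light chain Slc7a9, which together take up cystine and cationic amino acids in kidney, were low. Slc3a1 had 13 and 18 reads with dox and 27 and 22 without, and Slc7a9 had 2.27 and 1.84 CPM with dox and 1.67 and 1.83 without. Slc3a1 shares 26.35% of its exon bases with Prepl on the opposite strand.

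**Figure D3:**
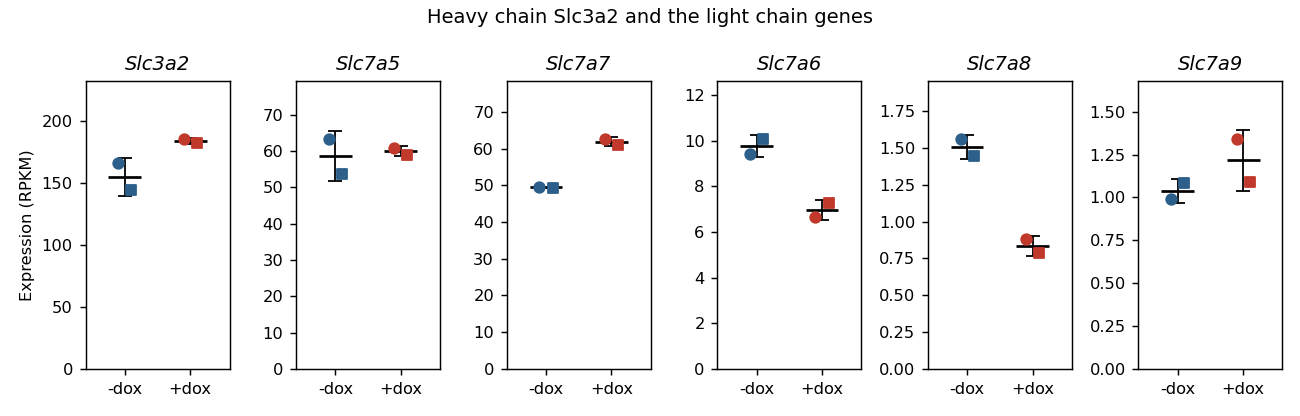
Expression in RPKM (vertical axes, each from 0) of the heavy chain gene Slc3a2 and of 5 light chain genes, Slc7a9 being the partner of Slc3a1, in -dox (blue) and +dox (red) libraries. Circles are replicate 1, squares replicate 2, and lines with bars give the mean and SD (n = 2); Slc3a2 and Slc7a7 lie higher and Slc7a6 and Slc7a8 lower with dox, with no overlap, while Slc7a5 overlaps.

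Slc7a11 (xCT), which imports cystine for glutathione synthesis, had only 28 and 2 reads with dox and 16 and 9 reads without. The 28 reads were in +dox replicate 1, the library with the highest fibroblast markers, and the replicates disagreed in sign (1.13 and -1.39 on the log2 scale). Several of these genes are known to be induced through the amino acid response, in which the transcription factor Atf4 binds elements with the core TGATGNAA. That core (either strand, TTNCATCA in reverse) was looked for in RefSeq promoters of 43 of the 61 members. Each promoter ran from 250 bases before to 50 bases after a start. The core was present in 4 of 64 member promoters (6.25%) and in 3.97% of all 32851 promoters examined, and the 4 belonged to Slc7a7, Slc7a11 and Slc1a4. Both Slc7a7 promoters counted here overlap and share 1 of their matches, so the 4 are not separate sites. One promoter of each of these 3 genes is printed to show where the core lies. Coordinates are those of GRCm38.p6, all on the minus strand, and capitals mark the core.
Slc7a7 (chr14:54417895-54418194): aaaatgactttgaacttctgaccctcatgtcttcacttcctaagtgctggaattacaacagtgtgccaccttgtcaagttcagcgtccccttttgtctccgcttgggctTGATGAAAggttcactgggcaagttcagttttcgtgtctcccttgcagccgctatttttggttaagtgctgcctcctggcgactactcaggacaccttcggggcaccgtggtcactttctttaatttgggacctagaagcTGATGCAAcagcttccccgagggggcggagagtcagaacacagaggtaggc
Slc7a11 (chr3:50443564-50443863): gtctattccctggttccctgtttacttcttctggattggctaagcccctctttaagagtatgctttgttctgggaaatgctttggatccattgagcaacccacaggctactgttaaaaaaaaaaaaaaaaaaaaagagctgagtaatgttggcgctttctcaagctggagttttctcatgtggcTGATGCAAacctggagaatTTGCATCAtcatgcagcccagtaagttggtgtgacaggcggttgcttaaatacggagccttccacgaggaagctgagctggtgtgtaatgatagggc
Slc1a4 (chr11:20332664-20332963): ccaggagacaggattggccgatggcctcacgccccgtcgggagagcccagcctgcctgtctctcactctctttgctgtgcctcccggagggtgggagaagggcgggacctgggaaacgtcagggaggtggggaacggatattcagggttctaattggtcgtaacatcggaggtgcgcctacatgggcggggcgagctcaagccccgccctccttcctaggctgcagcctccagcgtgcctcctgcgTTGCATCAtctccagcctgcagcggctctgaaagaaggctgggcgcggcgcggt

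A match of these letters is a description of the sequence and not evidence of binding. Promoters of Slc1a5, Slc36a2, Slc38a1, Slc38a3, Slc43a3, Slc6a15, Slc6a18, Slc6a2, Slc6a6, Slc6a7, Slc6a8, Slc7a12, Slc7a13, Slc7a2, Slc7a3, Slc7a4 and Slc7a5 were not analysed here.

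Among the carriers of cationic amino acids that need no heavy chain, Slc7a3 had 239 and 293 CPM with dox and 240 and 222 without, so the groups overlapped. Its log2 fold change was 0.20 (interval -0.03 to 0.44, adjusted p = 0.362 from edgeR), from -0.01 in replicate 1 and 0.41 in replicate 2. Slc7a1 (CAT1) had 70.0 and 67.5 CPM with dox and 66.1 and 77.0 without. The RPKM of Slc7a3 was 8.58 to 13.0 times that of Slc7a1 in the 4 libraries.

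Of the 11 SLC38 genes, 8 averaged 1 CPM or more, and 0 were called. Slc38a2, whose product loads alanine, serine and glutamine, had 388 and 337 CPM with dox and 339 and 326 without, a log2 fold change of 0.12 (interval -0.08 to 0.33). Slc38a1 (SNAT1) had 182 and 164 CPM with dox and 202 and 156 without, and Slc38a4 had 188 and 209.8 with dox and 184 and 222 without. For these 3 system A carriers the groups overlapped. The glutamine carriers of system N were lower in both +dox libraries. Slc38a3 had 4.13 and 5.25 CPM with dox and 7.76 and 8.17 without, a log2 fold change of -0.76 (SE 0.23, adjusted p = 0.0973 from edgeR). Slc38a5, on chromosome X, had 10 and 12 reads with dox and 32 and 35 without, a log2 fold change of -1.32 (SE 0.44, adjusted p = 0.131 from edgeR). Both are among the 9 members with an unadjusted p under 0.05. The lysosomal carriers Slc38a7, which exports glutamine, and Slc38a9, which senses arginine for mTORC1, had log2 fold changes of -0.17 and 0.08. The interval of Slc38a7 was -0.45 to 0.11.

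In the SLC1 family, Slc1a5 (ASCT2), an exchanger of glutamine and other neutral amino acids, had 66.8 and 84.3 CPM with dox and 93.8 and 93.5 without. Its groups did not overlap, but the log2 fold change was -0.49 in replicate 1 and -0.15 in replicate 2, and -0.31 in the fit of both (SE 0.12, adjusted p = 0.191 from edgeR). Without +dox replicate 1 it was -0.15. The related Slc1a4 (ASCT1) had 21.1 and 18.7 CPM with dox and 21.5 and 28.02 without. The glutamate carriers that clear transmitter in the brain were low (Slc1a3, 20.4 CPM with dox and 20.6 without on average) or at a few reads (Slc1a2, 1 to 9 reads per library). All 5 SLC1 genes with at least 1 CPM had log2 fold changes below 0, from -0.32 to -0.01, and 0 were called. Slc1a3, at -0.01, had opposite signs in the 2 replicates (-0.05 and 0.02). Among all genes at that level 6978 of 13911 were below 0, and among the members 25 of 37.

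The SLC6 family holds carriers of neurotransmitters, taurine and creatine, and 11 of its 19 genes were below 1 CPM. Slc6a6 had 334 and 360 CPM with dox and 344 and 379 without, and Slc6a8 had 187 and 201 with dox and 192 and 207 without, so the groups of both overlapped. Their intervals were narrow, from -0.26 to 0.14 for Slc6a6 and from -0.24 to 0.16 for Slc6a8. Slc6a11, a carrier of the transmitter GABA, had 31 and 11 reads with dox and 73 and 27 without, and its groups overlapped in CPM, with a log2 fold change of -0.91 (SE 0.50, adjusted p = 0.385 from edgeR). Without +dox replicate 1 it was -1.86 (adjusted p = 0.00913 from edgeR). That fit keeps a lone +dox library, which is assumed to vary like the other group, and it called 992 of all genes.

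Slc36a4 (PAT4) was the member above 1 CPM with the most negative log2 fold change. It had 44 and 35 reads with dox and 91 and 107 without, which is 1.95 and 1.53 CPM against 2.98 and 4.26, a log2 fold change of -1.05 (SE 0.31, interval -1.71 to -0.38, adjusted p = 0.0901 from edgeR). The replicates differed in size, at -0.59 and -1.43. The more abundant Slc36a1 (PAT1), which exports small amino acids from lysosomes, had 32.2 and 28.8 CPM with dox and 34.5 and 30.1 without. The SLC43 family includes LAT3 (Slc43a1) and LAT4 (Slc43a2), which carry branched-chain amino acids. In it 3 of 3 genes were above 1 CPM and 0 were called. Their log2 fold changes were -0.06 (Slc43a1), 0.29 (Slc43a2) and -0.43 (Slc43a3).

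**Figure D4:**
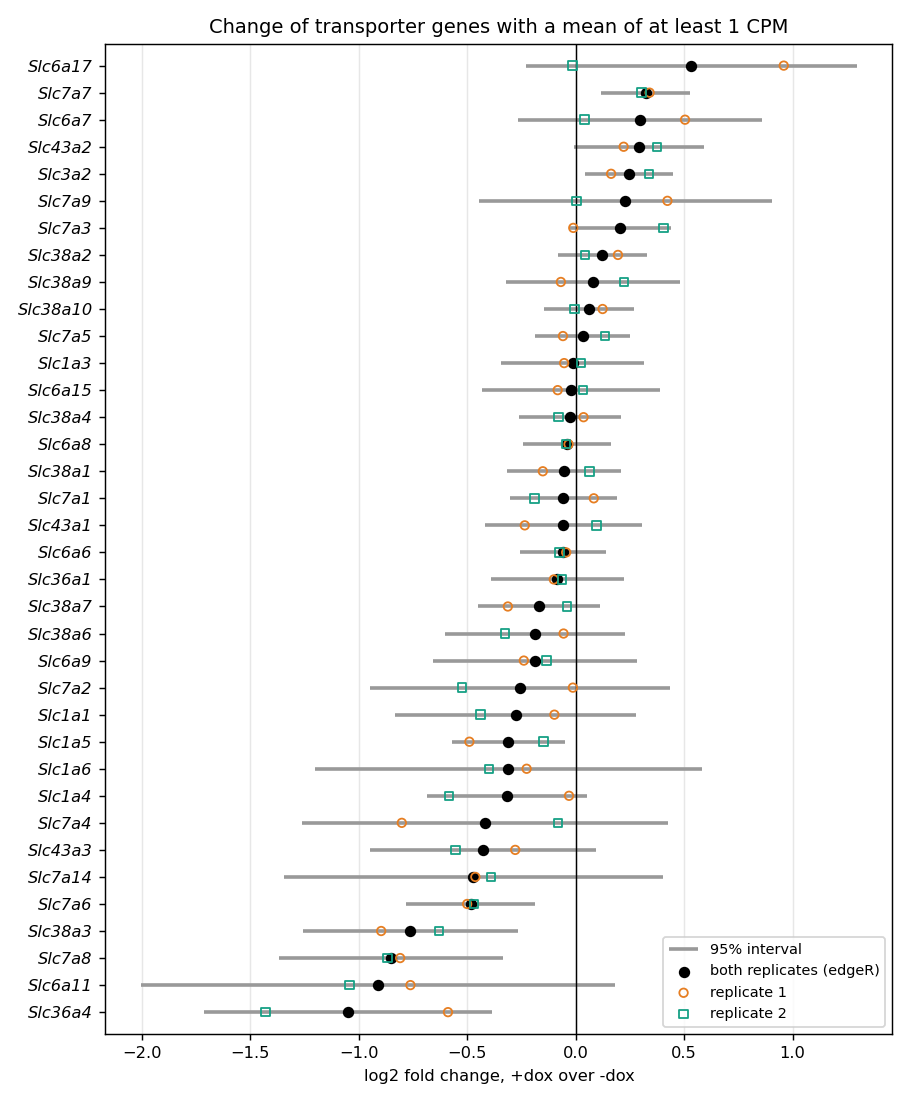
Log2 fold change of +dox over -dox (horizontal axis) for the 36 plotted transporter genes that averaged 1 CPM or more, ordered by value. Black points are edgeR's estimate from both replicates, grey lines its 95% interval, and open orange circles and green squares replicates 1 and 2 alone. The values run from -1.05 (Slc36a4) to 0.53 (Slc6a17). The sign is the same in both replicates for 25 of the 36 genes, beside 9694 of all 13911 genes with at least 1 CPM.

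With 2 libraries per group, non-overlap of the groups is common. Of the 37 members with at least 1 CPM, 6 (16.2%) were higher in both +dox libraries than in both -dox libraries, where 26.1% of all 13911 such genes were, and 13 (35.1%) were lower, where 27.7% were. The 6 included Slc3a2, Slc43a2, Slc6a7, Slc7a7 and Slc7a9, and the 13 included Slc1a5, Slc36a4, Slc38a3, Slc7a6 and Slc7a8. The remaining 24 members were below 1 CPM. Slc38a11, Slc7a12 and Slc7a13 had 0 reads in every library, which allows a level of up to 0.131 CPM in the shallowest library (3 counts, counting error only). The other 21 had means from 0.0111 to 0.853 CPM, among them the carriers of dopamine (Slc6a3), noradrenaline (Slc6a2) and serotonin (Slc6a4). Among these 21, Slc38a5 alone had an unadjusted p under 0.05 in edgeR, and for the other 20 a difference was not detectable at this depth. Slc6a20a and Slc6a20b are close copies of each other whose reads could be split between them, and had 2 to 7 and 0 to 2 reads per library.

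Genes that act with these carriers were also examined, in 3 lists. The amino acid response list holds Atf4 and genes known to be induced with it, and 1 of 44 was called by edgeR, beside 0.599% of all genes, and 3 by DESeq2, beside 1.87%. At an unadjusted p under 0.05 in edgeR there were 12 (27.3%, 3 higher and 9 lower), beside 17.8% of all genes. Of the 44, 43 averaged at least 1 CPM, and among all genes at that level the share was 23.3%. Atf4 itself had 441 and 478 CPM with dox and 443 and 440 without (log2 fold change 0.06, adjusted p = 0.753 from edgeR). Ddit4, an inhibitor of mTORC1 that many stresses induce, fell from 116 ± 9.11 CPM (SD, n = 2) without dox to 65.6 ± 8.27 CPM (SD, n = 2) with it, a log2 fold change of -0.82 (adjusted p = 0.00332 from edgeR). Stc2, a secreted glycoprotein, had a log2 fold change of -1.09 and Nupr1, a stress-induced chromatin protein, of 1.12, with adjusted p = 0.0181 and 0.0389 from edgeR, and both were called by DESeq2 and by edgeR with a replicate block (adjusted p = 0.000622 for Stc2 and 0.00209 for Nupr1). Nupr1 differed between replicates (1.64 and 0.46), as the fibroblast markers did.

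The sensing list holds 43 genes of mTORC1 and Gcn2 and of proteins that signal to them. Of these, 8 (18.6%) had an unadjusted p under 0.05 in edgeR. All 43 averaged at least 1 CPM, and 23.3% of all genes at that level had such a p. At an adjusted p under 0.01, where edgeR called 0.599% and DESeq2 1.87% of all genes, edgeR called 0 of the 43 and DESeq2 called 1. That gene was Akt1s1 (PRAS40), an mTORC1 component, with 177 and 191 CPM with dox and 139 and 134 without (log2 fold change 0.43, adjusted p = 0.0319 from edgeR). Of 55 enzymes that make or break down amino acids, glutathione or polyamines, 54 were tested. Among them 1 was called by both tools, beside the same 0.599% and 1.87% of all genes. At an unadjusted p under 0.05 in edgeR there were 17 enzymes (31.5%, 8 higher and 9 lower), beside 17.8% of all genes. Of the 55 enzymes, 48 averaged at least 1 CPM, and among all genes at that level the share was 23.3%. Ass1, which makes argininosuccinate on the way to arginine, rose from 39.2 ± 3.77 CPM (SD, n = 2) without dox to 67.5 ± 0.474 CPM (SD, n = 2) with it, a log2 fold change of 0.79 (SE 0.12, adjusted p = 0.00546 from edgeR). The median log2 fold changes of the response, sensing and enzyme lists were -0.00, -0.01 and 0.01, beside 0.01 over all genes tested.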

How the data were processed

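Bulk RNA-seq counts of 4 libraries were used, and the ChIP-seq and Hi-C samples of the series were not analysed here. Per the labels and the study's methods, the authors trimmed reads with cutadapt, aligned them with TopHat2 to the mouse genome (mm9) and deposited raw counts per gene from HOMER. Versions and the use of strand are not given in the sources used here. The 2 count tables, 1 per replicate, were joined by gene symbol, since 547 genes (2 members, Slc1a2 and Slc38a1) are listed with another transcript in each. Genes with at least 1 count in 1 library were tested with edgeR 4.0.16 in R 4.3.3 (quasi-likelihood test, TMM, no replicate term, Benjamini-Hochberg adjusted p under 0.01). DESeq2 1.42.0, the tool the study names, was an alternative, as were other scalings, filters, tests, a replicate block and leaving out each library. The 95% intervals came from edgeR's F statistic, CPM used TMM, RPKM divided CPM by the transcript length in the tables, and log2 fold changes of 1 replicate used a prior count of 2. The tests were also run on simulated counts in which 200 genes with at least 1 CPM were changed. At a log2 change of 0.5, edgeR's test recovered 17 of these genes and DESeq2 38. At a log2 change of 1 they recovered 113 and 140, and at 2 each recovered 182. A gene with at least 1 CPM can therefore differ by such amounts and not be called, most often at the smallest. These counts pool genes of many levels, and the limit for a single member is its 95% interval. Of the 23 members with at least 10 CPM, 22 had an interval within 2-fold in either direction. The genes to be named were members past a threshold in the fits (0 were), the 12 with the highest RPKM, and Slc3a1, Slc3a2 and their light chains. List genes called by edgeR or DESeq2 were named too, with Atf4. Other members were named after their values were seen. Members and lists were chosen with earlier results of these data known. With 2 biological replicates per group, p-values rest on few libraries, and between 22899107 and 30206085 counted reads set the precision. The values of 1 gene are not reported here, and it is left out of the figures.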

Additional observations from a re-analysis of the deposited data

How the results depend on the processing

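Of the 61 transporter genes, 0 were called under every alternative at an adjusted p under 0.01 and by edgeR at 0.05, except that leaving out 1 library gave between 0 and 2 (2 without +dox replicate 1, with Slc6a11 among them). At a threshold of 0.05, added after seeing the data, DESeq2 called 2 (Slc7a6 and Slc7a7) and edgeR with the replicate block 7, and with the block at 0.01 it was 0. Calls in the amino acid response list (1 in edgeR) were 3 with DESeq2, 2 with the likelihood ratio test, 0 with adjusted deviances, 0 with filterByExpr, 3 at 0.05, 3 with the replicate block, 2 with DESeq2 and the block, and 0 to 4 with 1 library left out. Calls in the sensing list (0) were 1 with DESeq2, the likelihood ratio test, the block or a threshold of 0.05, and 0 to 5 with 1 library left out. Calls among the enzymes (1) were 2 with the likelihood ratio test or at 0.05, 0 with adjusted deviances, total counts or filterByExpr, 3 with the block, and 0 to 4 with 1 library left out. The lowest counts came without a -dox library, where edgeR called 0 of all genes, and the highest without +dox replicate 1 (992 genes) or +dox replicate 2 (877). Over all genes, edgeR called 120, DESeq2 375, the likelihood ratio test 457, adjusted deviances 0, the block 786, DESeq2 with the block 264 and filterByExpr 11, and the cause was not tested. The members' median log2 fold change (-0.06) was -0.0987 with total counts, where that of all genes was -0.04, and -0.141 to -0.0355 with 1 library left out. Total counts put Slc7a5 at -0.0101. Leaving out 1 library turned the sign of 6 abundant genes: Slc38a1 (-0.227 to 0.143), Slc38a10 (-0.0152 to 0.131), Slc38a4 (-0.155 to 0.115), Slc6a6 (-0.128 to 0.011), Slc6a8 (-0.0932 to 0.0177) and Slc7a5 (-0.083 to 0.159). For Slc38a1 the listed transcript has 7734 bases in replicate 1 and 7248 in replicate 2, and the part of this in its values was not tested. Deviations of same-numbered libraries from their group means correlated at 0.196 over 13911 genes, and with 2 pairs the labels give only a shared number. Members below 1 CPM are limited by depth.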
